A study of Mus musculus with 6 samples.

Results

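The genes described here encode the Rel family of transcription factors (the DNA-binding subunits of NF-κB) and the IκB kinases that release them. They were chosen by gene name, but with earlier results of these data known. The subunits are Rel, Rela, Relb, Nfkb1 and Nfkb2. The kinase group holds Chuk, Ikbkb and Ikbke, and also the scaffold gene Ikbkg and the upstream kinase gene Map3k14. Of these 10 genes, 8 had a row on the array that carried their symbol alone, out of 19938 genes in all, and each had 1 row. Nfkb1 and Chuk were not analysed here.

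Bone marrow of C57BL/6J mice of 2 genotypes, wild type (WT) and a knockout of the microRNA miR-155 (miR-155 KO), was grown into mast cells. Both had 5 weeks in culture with IL-3 at 0.5 ng/ml plus SCF at 1 ng/ml. All cells were then loaded overnight with anti-DNP IgE (0.2 µg/ml) and exposed for 1 h to the antigen DNP-HSA (20 ng/ml), which cross-links the IgE receptor FcεRI. Each genotype had 3 independent cultures with 1 Affymetrix Mouse Gene 1.0 ST array each. Whether the cultures came from separate animals, the age of the mice and the allele of the deletion were not given in the sources used here. No array was taken without antigen. The values therefore set 2 genotypes side by side after antigen and hold no measure of what antigen itself changed.

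NF-κB is a dimer of Rel family proteins. In resting cells, IκB proteins hold the dimers in the cytoplasm. In the classical branch, a kinase complex of IKKα (Chuk), IKKβ (Ikbkb) and the scaffold NEMO (Ikbkg) marks IκB for destruction, and dimers of p65 (Rela) or c-Rel (Rel) with p50 enter the nucleus. In the alternative branch, the kinase NIK (Map3k14) acts through IKKα to trim p100, the product of Nfkb2, into p52, which pairs with RelB. In mast cells, FcεRI signalling feeds the classical branch, which drives cytokine and chemokine genes.

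The microRNA that the KO cells lack is shown first because its seed (bases 2 to 8, in capitals) is what pairs with target transcripts. The sequence is that of RefSeq on GRCm38.p6, at chr16:84714143-84714165 on the plus strand.
mmu-miR-155-5p: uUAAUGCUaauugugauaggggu

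The upstream sequences of 3 members are shown because Rel proteins bind κB sites in DNA: Nfkb2 and Map3k14, whose KO arrays all lay above WT without passing the test, and Rel, whose arrays overlapped. Each is the 250 bases before a RefSeq transcription start (GRCm38.p6), written 5′ to 3′ on the strand of the gene. Capitals mark matches to the κB decamer consensus, searched on both strands with overlapping matches merged. The windows are chr19:46304487-46304736 (plus strand) for Nfkb2, chr11:23770970-23771219 (minus strand) for Rel and chr11:103267402-103267651 (minus strand) for Map3k14.
Nfkb2: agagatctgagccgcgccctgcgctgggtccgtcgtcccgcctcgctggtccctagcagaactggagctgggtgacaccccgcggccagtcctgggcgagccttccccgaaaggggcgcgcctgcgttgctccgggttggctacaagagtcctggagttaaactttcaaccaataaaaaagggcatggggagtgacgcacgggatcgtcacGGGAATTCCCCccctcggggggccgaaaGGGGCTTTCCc
Rel: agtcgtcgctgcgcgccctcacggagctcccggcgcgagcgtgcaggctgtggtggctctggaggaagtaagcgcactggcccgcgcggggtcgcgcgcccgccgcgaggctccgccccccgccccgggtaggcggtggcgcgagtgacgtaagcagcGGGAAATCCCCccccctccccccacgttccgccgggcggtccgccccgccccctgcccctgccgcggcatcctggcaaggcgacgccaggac
Map3k14: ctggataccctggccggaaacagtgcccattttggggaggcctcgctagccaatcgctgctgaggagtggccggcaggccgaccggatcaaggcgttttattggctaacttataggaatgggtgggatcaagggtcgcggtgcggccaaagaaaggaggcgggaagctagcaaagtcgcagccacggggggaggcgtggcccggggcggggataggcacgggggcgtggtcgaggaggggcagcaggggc

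The Nfkb2 window held 2 merged κB matches, the nearer of which lay 11 to 2 bases before the start and the farther 39 to 29 bases before it. The Rel window held 1, from 92 to 82 bases before the start, and the Map3k14 window held 0. The promoter table had 12 windows for 7 of the 10 genes. A match stood in 4 of the 12, namely the 3 windows of Nfkb2 and that of Rel. The windows of Rela, Chuk, Ikbkg, Ikbke and Map3k14 had none, and Relb, Ikbkb and Nfkb1 were not searched. The Nfkb2 windows chr19:46305445-46305694 and chr19:46305680-46305929 overlap in part. Over all 32851 windows of that length, 7.25% held a match. That share counts windows, and no share per gene was computed. These matches describe letters in the sequence and are not measured binding sites.

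The arrays can be judged from a few values of the whole series. The probe set of the targeted gene, Mir155, read 2.93, 2.88 and 3.17 on the WT arrays and 2.77, 2.91 and 2.90 on the KO arrays (log2 intensity). All of these lie below the array medians of 3.67 to 3.74, so Mir155 cannot serve as a check of the genotypes here. Fcer1a, the IgE-binding chain of FcεRI, averaged 12.06 ± 0.13 in WT and 12.10 ± 0.10 in KO, and Kit, the SCF receptor, 11.89 ± 0.19 and 11.82 ± 0.10 (log2, SD, n = 3). Both lie near the top of the arrays' range. Of all genes, 12.7% reached an unadjusted p under 0.05 by limma and 0.823% an adjusted p under 0.05. At the latter share, 0 passing among few markers does not show that the cultures held the same cells. Of 11 mast cell markers 0 passed after adjustment and 3 reached the unadjusted level. These were Hdc, histidine decarboxylase, at a difference of 0.84, and the protease gene Mcpt4 at 0.44, both with every KO array above WT, and the transcription factor gene Mitf at -0.29 (limma adjusted p = 0.233, 0.174 and 0.336). Their part in the members' differences was not tested. Of 33 markers of macrophages, neutrophils, basophils, eosinophils, dendritic cells and lymphocytes, 29 stayed under 5 on every array. By limma 0 of the 33 differed at an adjusted p under 0.05, 4 did at an unadjusted p under 0.05, and the KO arrays lay below WT for 4 and above for 0. Over all genes the KO arrays lay below WT for 9.05% and above for 8.18%. Cd68, a lysosomal protein of macrophages that other cells carry too, was the brightest of them at 8.46 ± 0.08 in WT and 8.10 ± 0.44 in KO. The basophil markers Mcpt8 (6.68 ± 1.27 and 6.47 ± 1.01) and Prss34 (4.94 ± 0.76 and 4.25 ± 0.35) also exceeded 5 on some arrays, and their groups overlapped. So did the dendritic cell marker H2-Ab1, at 5.07 ± 0.05 in WT and 4.51 ± 0.17 in KO (limma adjusted p = 0.0523), with every KO array below WT. What part such cells had in the members' values was not tested. On the first principal component of all genes, KO replicate 1 lay apart at 32.0, against 5.36 and 7.31 for the other KO arrays and -19.5 to -10.6 for WT. In these bulk samples, fewer cells of a type and less RNA per cell cannot be told apart.

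RelB and NEMO transcripts rose in miR-155 KO cells, and no member fell. Relb rose 1.60-fold and Ikbkg 1.55-fold. Transcripts for p100 (Nfkb2) and NIK (Map3k14) were 1.83-fold and 1.42-fold above WT, with every KO array above every WT array, but did not pass the test. Rel, Rela, Ikbkb and Ikbke overlapped between genotypes. A gene is said to have risen or fallen where its Benjamini-Hochberg adjusted p from limma, over all 19938 genes, was under 0.05. By that rule 2 of the 8 members rose, 0 fell and 6 did not pass, while 0.823% of all genes passed in either direction and 0.507% passed as higher. At an unadjusted p under 0.05 there were 4 members, all higher in KO, where 12.7% of all genes reached that level. All KO arrays lay above all WT arrays for 4 of the 8 members and for 8.18% of all genes. They lay below WT for 0 members and for 9.05% of all genes, so the genotypes did not overlap for 4 members and for 17.2% of all genes. The median difference over the 8 members was 0.42 on the log2 scale, against -0.01 over all genes.

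**Figure D1:**
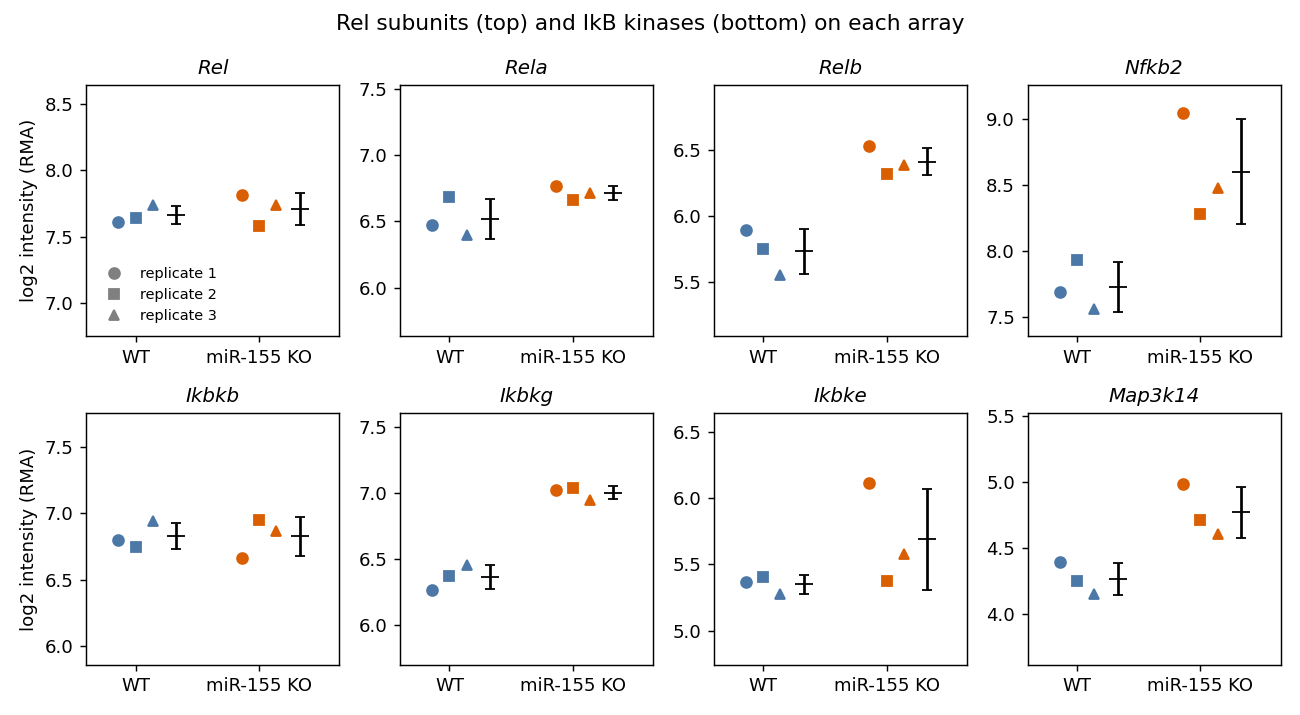
Log2 intensity (RMA) of each member on each of the 6 arrays, with WT in blue and miR-155 KO in orange, a symbol for each replicate number, and the mean with SD beside the points. Each panel spans the same number of log2 units. KO points lie above all WT points for Relb, Nfkb2, Ikbkg and Map3k14 and overlap them for Rel, Rela, Ikbkb and Ikbke.

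Among the subunits, Relb encodes the partner of p52 in the alternative branch. It read 5.89, 5.75 and 5.56 on the WT arrays and 6.53, 6.32 and 6.39 on the KO arrays. The lowest KO array stood 0.43 above the highest WT array, and the KO arrays lay within 0.21 of each other. The mean went from 5.73 ± 0.17 to 6.41 ± 0.10 (log2, SD, n = 3), a difference of 0.68 (SE 0.11, limma adjusted p = 0.0350). This call needed all 6 arrays. With each array left out in turn the difference stayed between 0.59 and 0.76 and the adjusted p between 0.0538 and 0.114.

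Nfkb2 encodes p100, which serves both as an inhibitor of Rel dimers and as the precursor of p52. It read 7.69, 7.93 and 7.56 on the WT arrays and 9.05, 8.28 and 8.48 on the KO arrays. The groups did not overlap, and KO replicate 1 stood 0.67 above the mean of the other KO arrays. The mean was 7.73 ± 0.19 in WT and 8.60 ± 0.40 in KO, a difference of 0.87 (SE 0.19, limma adjusted p = 0.0822). This was the largest difference among the 8 members, with the widest spread among KO arrays. Without KO replicate 1 the difference was 0.65 (limma adjusted p = 0.0919).

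Rela encodes p65, the main activating subunit of the classical branch. It read 6.47, 6.69 and 6.39 on the WT arrays and 6.77, 6.66 and 6.71 on the KO arrays. The second WT array lay among the KO arrays. The difference was 0.20 (SE 0.10, limma adjusted p = 0.468), with a 95% interval from -0.03 to 0.42.

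Rel encodes c-Rel, the other activating subunit of the classical branch. It read 7.61, 7.64 and 7.74 on the WT arrays and 7.81, 7.58 and 7.74 on the KO arrays. The groups were interleaved. The difference was 0.05 (SE 0.09, limma adjusted p = 0.914), with a 95% interval from -0.17 to 0.26, and it was -0.01 without KO replicate 1.

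In the kinase group, Ikbkg encodes NEMO, the scaffold that holds the kinase complex together and binds ubiquitin chains. It read 6.27, 6.37 and 6.45 on the WT arrays and 7.02, 7.03 and 6.95 on the KO arrays. The 3 KO arrays lay within 0.09 of each other and at least 0.49 above every WT array, the widest gap of any member. The mean went from 6.36 ± 0.09 to 7.00 ± 0.05, a difference of 0.64 (SE 0.09, limma adjusted p = 0.0190). KO replicate 1 stood only 0.03 above the mean of the other KO arrays for Ikbkg. Without that array the difference was 0.63 and still passed (limma adjusted p = 0.0424). Among the fits without 1 array, Ikbkg passed without KO replicate 1 and without KO replicate 2, and its adjusted p over the 6 ran from 0.0424 to 0.0800.

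In the RefSeq gene table, Ikbkg overlaps Fam3a by 42 bases at its start and contains G6pdx, of 19398 bases. Both lie on the opposite strand. G6pdx was not analysed here. Fam3a, with the far smaller overlap, read 5.63 ± 0.18 in WT and 5.11 ± 0.11 in KO (difference -0.52, SE 0.11, limma adjusted p = 0.0815). The positions of the Ikbkg probes were not used here, and a contribution of the overlapping genes to its signal was not tested. The genes on either side of Relb, Clasrp and Clptm1, differed by 0.08 (SE 0.09) and 0.24 (SE 0.08) and did not pass (limma adjusted p = 0.806 and 0.248). Fam3a, Clasrp and Clptm1 were chosen for their position next to members that had risen.

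Map3k14 encodes NIK, the kinase that starts the alternative branch. It read 4.40, 4.25 and 4.15 on the WT arrays and 4.99, 4.72 and 4.61 on the KO arrays. The groups did not overlap, with a gap of 0.21. The difference was 0.50 (SE 0.12, limma adjusted p = 0.0967), and 0.40 without KO replicate 1 (limma adjusted p = 0.211). The WT values lay little above the array medians, so the 1.42-fold ratio may be inexact.

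Ikbke encodes IKKε, a kinase related to the IκB kinases, and has been reported as a miR-155 target in other cells. It read 5.37, 5.41 and 5.27 on the WT arrays and 6.11, 5.38 and 5.58 on the KO arrays. KO replicate 1 alone stood clear of the rest, 0.63 above the mean of the other KO arrays, and KO replicate 2 lay among the WT arrays. The difference was 0.34 (SE 0.17, limma adjusted p = 0.467), with a 95% interval from -0.04 to 0.73. Without KO replicate 1 it was 0.13.

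Ikbkb encodes IKKβ, the kinase that phosphorylates IκBα in the classical branch. It read 6.80, 6.75 and 6.94 on the WT arrays and 6.66, 6.95 and 6.87 on the KO arrays. The groups overlapped fully. The difference was -0.00 (SE 0.10, limma adjusted p = 0.996), with a 95% interval from -0.24 to 0.23, and the sign turned to 0.08 without KO replicate 1 and to 0.05 without WT replicate 3. NEMO and IKKβ, which sit in the same complex, thus differed from WT by 0.64 and by -0.00 at the level of RNA. That contrast between the 2 genes was not tested.

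**Figure D2:**
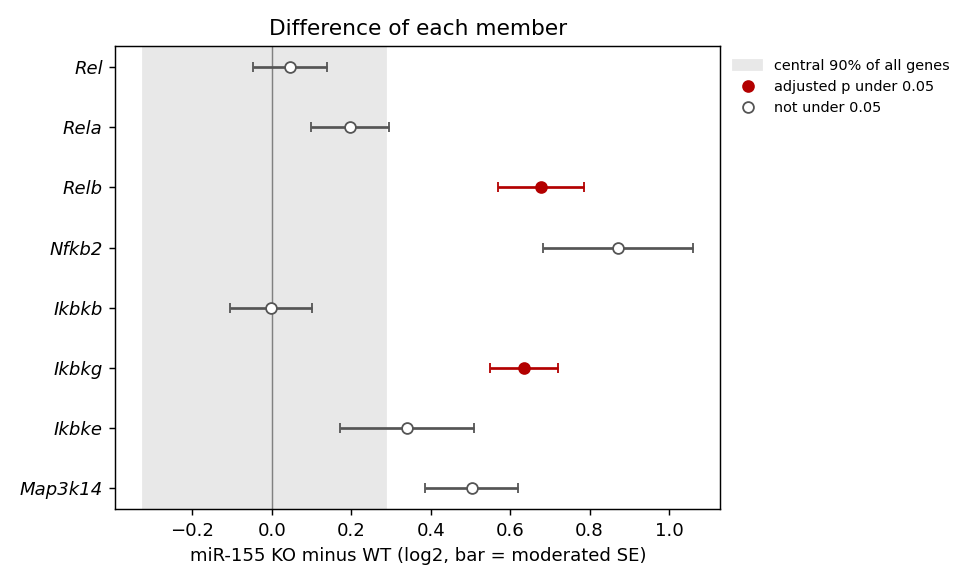
Difference between miR-155 KO and WT for each member on the log2 scale, with the moderated SE as the bar. Filled red points passed an adjusted p of 0.05 and the grey band holds the central 90% of all genes. Relb, Nfkb2, Ikbkg, Ikbke and Map3k14 lie to the right of the band, and Relb and Ikbkg passed.

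The members did not vary alike across the KO arrays. KO replicate 1 was the highest KO array for 6 of the 8 members, the exceptions being Ikbkg and Ikbkb, and for 36.4% of all genes. Taking each array's value minus the WT mean, the median over the 8 members was 0.69 for KO replicate 1, 0.30 for KO replicate 2 and 0.29 for KO replicate 3, and between -0.09 and 0.01 for the WT arrays. KO replicate 1 stood above the highest WT array for 7 members, KO replicate 2 for 5 and KO replicate 3 for 6. Without KO replicate 1 the differences of Relb, Nfkb2, Ikbkg and Map3k14 were 0.62, 0.65, 0.63 and 0.40, all above 0, and of the 8 members Ikbkg alone passed.

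**Figure D3:**
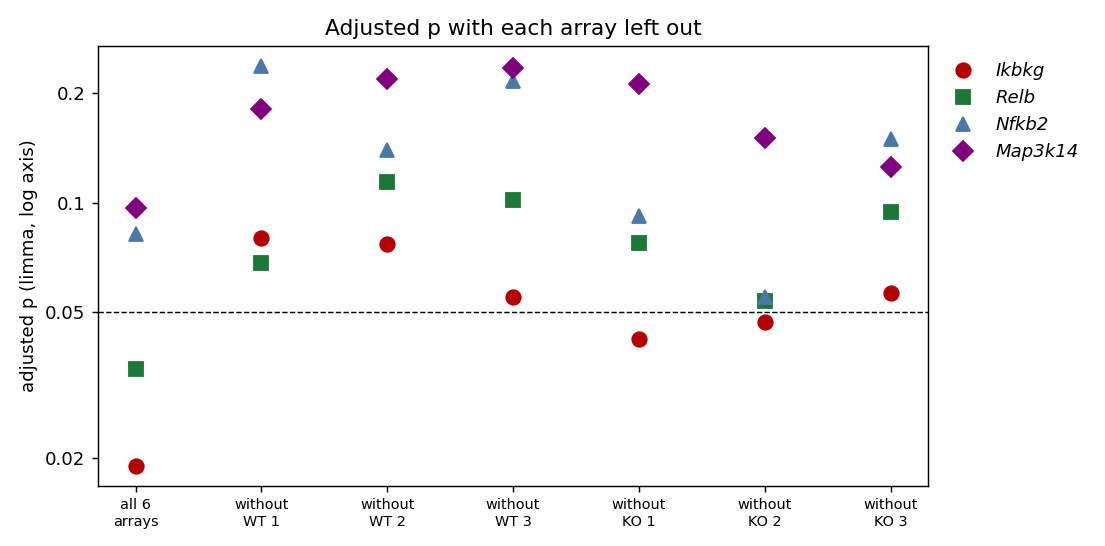
Adjusted p from limma (log axis) for Ikbkg, Relb, Nfkb2 and Map3k14 with all 6 arrays and with each array left out. The dashed line is 0.05. Ikbkg and Relb lie under it with all arrays, and Ikbkg also without KO replicate 1 and without KO replicate 2.

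The genes whose pattern over the 6 arrays was most like that of Ikbkg were Ifnar1, a chain of the type I interferon receptor (Pearson r = 0.9986), Txnrd1, thioredoxin reductase (r = 0.9962), and Pgd, an enzyme of the pentose phosphate pathway (r = 0.9942). They were searched among the 9969 genes with a mean above the median of all genes. Ifnar1 rose by 1.10 (SE 0.11, limma adjusted p = 0.00534), Txnrd1 by 0.58 (limma adjusted p = 0.0194) and Pgd by 0.59 (limma adjusted p = 0.0280). The closest to Relb were Ddt, D-dopachrome tautomerase (r = 0.9969), Nsfl1c, a cofactor of the p97 ATPase (r = 0.9960), and Hdac3, a histone deacetylase (r = 0.9930). Ddt rose by 0.64 (limma adjusted p = 0.0288), whereas Nsfl1c and Hdac3 each differed by 0.16 (limma adjusted p = 0.468 and 0.464). These correlations are a description over 6 arrays that fall into 2 genotypes, and the genes were picked for the highest values.

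Transcripts of the IκB proteins Nfkbia, Nfkbib and Bcl3 rose in KO cells. Among 13 genes of IκB proteins and their ubiquitin ligase, 3 rose, 0 fell and 10 did not pass, where 0.823% of all genes passed. The median difference of the 13 was 0.33. At an unadjusted p under 0.05 there were 8, against 12.7% of all genes. Rbx1, 1 of the 8, was lower in KO at -0.23 (limma adjusted p = 0.354), and its dimmer second probe set differed by 0.01. Nfkbia, which encodes IκBα, rose 4.19-fold, from 5.99 ± 0.13 to 8.05 ± 0.76 (limma adjusted p = 0.0280). Nfkbib, which encodes IκBβ, rose 1.84-fold, from 7.29 ± 0.12 to 8.17 ± 0.32 (limma adjusted p = 0.0474). Bcl3, a nuclear IκB protein that partners p50 and p52, rose 1.82-fold, from 4.91 ± 0.26 to 5.78 ± 0.23 (limma adjusted p = 0.0487). Bcl3 passed in 0 of the 6 fits without 1 array, Nfkbib in 1 and Nfkbia in 2. The call also ended for Nfkbib with median centring (limma adjusted p = 0.0520), for Bcl3 with a repeated quantile normalization (0.0561) and for Nfkbia with trend and robust priors (0.0717).

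Of 13 negative regulators, 2 rose, 0 fell and 11 did not pass, where 0.823% of all genes passed. The median of the 13 was 0.25, and 6 reached an unadjusted p under 0.05, against 12.7% of all genes. The 2 that rose encode A20-binding proteins. Tnip1 went from 6.36 ± 0.16 to 7.08 ± 0.09 (1.64-fold, limma adjusted p = 0.0258), and Tnip3 from 4.19 ± 0.38 to 8.16 ± 0.85 (15.7-fold, limma adjusted p = 0.00531). Tnip1 binds NEMO as well as A20. It passed in 2 of the 6 fits without 1 array, and Tnip3 in all 6. The WT arrays of Tnip3, down to 3.75, lay close to the array medians, and the 15.7-fold ratio is therefore inexact.

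Upstream of the kinases, 0 of 25 measured genes passed by limma and 5 did at an unadjusted p under 0.05, with a median of 0.06. Of all genes 12.7% reached that unadjusted level and 0.823% passed. At that share of passing genes, 0 of 25 says little. Map3k3, 1 of the 5, was lower in KO at -0.29 (limma adjusted p = 0.150), with every KO array below WT. The lowest p values belonged to Traf1, an adaptor of TNF receptors, at 2.30 (SE 0.48, limma adjusted p = 0.0729), and Azi2, an adaptor of the kinase TBK1, at 0.36 (SE 0.09, limma adjusted p = 0.114). Traf1 read 3.44 ± 0.12 in WT, under the array medians, and 5.73 ± 1.19 in KO, so its ratio may be inexact. Of 7 measured nuclear partners of Rel proteins 0 passed by limma, and 1 reached an unadjusted p under 0.05. The shares of all genes were again 0.823% and 12.7%. The median of the 7 was -0.01. Irf1, a transcription factor that acts beside NF-κB on many promoters, differed by -0.45 (SE 0.10, limma adjusted p = 0.0815), and its dimmer second probe set by 0.10. Hdac3, given above, was the next.

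Of the 32 measured genes reported as targets of Rel proteins, 6 rose, 0 fell and 26 did not pass. Of all genes, 0.823% passed. The median of the 32 was 0.25, and 16 reached an unadjusted p under 0.05, against 12.7% of all genes. Plau, 1 of the 16, was lower in KO at -0.71 (limma adjusted p = 0.0718), with every KO array below WT. The 6 were the interleukin-1 genes Il1a (8.11-fold) and Il1b (9.26-fold), the cytokine gene Il13 (6.05-fold), the chemokine gene Ccl3 (5.14-fold), the cyclooxygenase gene Ptgs2 (3.86-fold) and the stress response gene Gadd45b (2.94-fold). Their limma adjusted p values lay between 0.00916 for Ccl3 and 0.0386 for Ptgs2. The WT means of Il1a, Il1b and Ptgs2, between 3.99 and 4.13, were close to the array medians, and their folds may be inexact. Of the 6 fits without 1 array, Il1b and Ccl3 passed in 4 each, Il1a in 3, and Il13, Ptgs2 and Gadd45b in 2 each. With trend and robust priors Il1a alone of the 6 genes passed. The folds of Relb and Ikbkg, 1.60 and 1.55, were smaller than each of these 6.

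Across the 5 pathway lists together 11 genes passed, where 0.823% of all genes did. That count was 10 without KO replicate 1, 19 without KO replicate 2 and 4 without KO replicate 3, and it was 1, 3 and 2 without WT replicates 1, 2 and 3. The count of members that passed was 1 without KO replicate 1, 1 without KO replicate 2 and 0 without KO replicate 3 or any WT array.

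**Figure D4:**
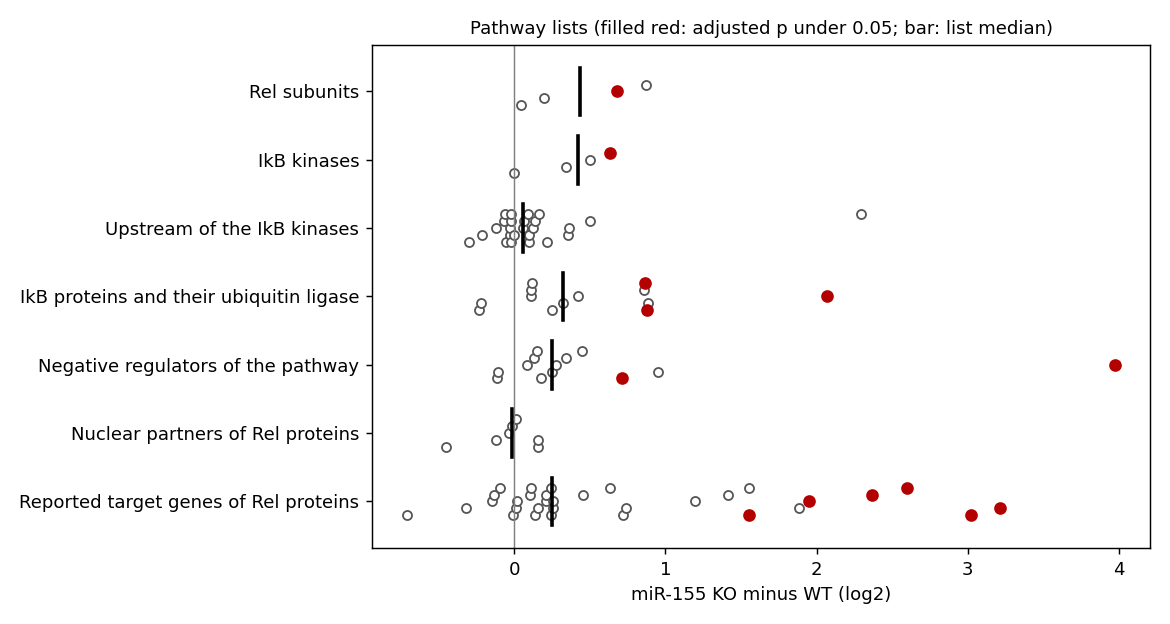
Difference between miR-155 KO and WT (log2) for each measured gene of the member groups and the pathway lists. Filled red points passed an adjusted p of 0.05 and black bars mark list medians. Calls stand among the Rel subunits, the kinase group, the IκB proteins, the negative regulators and the reported targets. The upstream genes and nuclear partners hold 0, where 0.823% of all genes passed.

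Genes of the pathway that other studies have reported as miR-155 targets did not pass. Besides Ikbke, these were Tab2, a ubiquitin-binding adaptor of the kinase TAK1, at 8.84 ± 0.02 in WT and 8.81 ± 0.02 in KO, Fadd, a death receptor adaptor, at 5.99 ± 0.13 and 5.95 ± 0.07, and Myd88, the adaptor of Toll-like and interleukin-1 receptors, at 8.10 ± 0.06 and 7.98 ± 0.05. By limma 0 of these 4 genes passed, where 0.823% of all genes did. At an unadjusted p under 0.05 there were 0, against 12.7% of all genes. At those shares, 0 of so few genes says little. Their adjusted p ran from 0.467 to 0.945. Every KO array of Myd88 lay below WT, as for 9.05% of all genes. Ripk1, also on that list, was not analysed here.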

How the data were processed

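RNA of 6 mast cell cultures, 3 per genotype, was measured on 1 array each. The deposited values are log2 intensities that the authors made with RMA, per the submitters' processing notes. Its version was not given. RMA removes background, makes the arrays' distributions alike and gives 1 value per transcript cluster, and ratios of dim genes come out too small. No further normalization was applied. The number of arrays limits the precision.

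Of 35557 probe sets, 21789 had 1 gene symbol in the platform annotation, 1621 had several and 12147 were not listed there. The probe set with the highest mean stood for a gene, which left 19938 genes. The tool was limma 3.58.1 under R 4.3.3 (lmFit and eBayes, genotype as the only term, two-sided, 4 residual degrees of freedom and 4.68 from the prior). Every adjusted p is Benjamini-Hochberg adjusted over all rows of its fit. Those rows were all genes, except with every probe set or with dim genes left out. SE is the moderated standard error, and intervals use it. The fit was also run on simulated data with independent noise and changes larger than those of the members. That run does not cover differences as small as theirs or an array that stands apart.

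The members and lists were chosen with earlier results of these data known. Named genes are the members, Mir155, each list gene that passed (or, where none passed, the 2 with the lowest p), the reported miR-155 targets, and the 3 genes most like each of the 2 members with the lowest p. Others were chosen after their values were seen. Alternatives were a replicate block, 2 normalizations, a filter on dim genes, other priors, array weights, every probe set, averaged probe sets and leaving out each array. Sequences came from RefSeq tables of GRCm38.p6. P-values set the difference between genotypes against the spread between cultures, moderated by a prior from all genes. Plots were drawn with matplotlib 3.10.9.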

Additional observations from a re-analysis of the deposited data

How the results depend on the processing

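With every probe set tested, 0 members, 0 list genes and 4 genes in all passed by limma, against 2, 11 and 164. Relb then stood at 0.68 (limma adjusted p = 0.159) and Ikbkg at 0.64 (limma adjusted p = 0.0999). This setting runs both the fit and the adjustment over all 35557 probe sets. It adds those without a single symbol and further probe sets of the same gene. The part of each in the lower counts was not tested. Under the other 7 settings that kept all arrays, both members passed. With trend and robust priors 7 list genes passed, and the cause was not tested. The difference of Ikbkb turned to 0.038 with array weights. With each array left out, the count ran from 0 to 1 for members, from 1 to 19 for list genes and from 15 to 167 for all genes, in fits with fewer arrays. The difference ran from -0.0064 to 0.11 for Rel, from 0.59 to 0.76 for Relb, from -0.066 to 0.080 for Ikbkb and from 0.59 to 0.68 for Ikbkg. Rela, Nfkb2, Ikbke and Map3k14 kept their direction and passed under none of the 14 alternatives, with adjusted p from 0.0552 to 0.237 for Nfkb2 and from 0.0605 to 0.247 for Map3k14. The labels do not say whether same-numbered WT and KO cultures were handled together. Their deviations from the group means correlated at -0.01, -0.06 and 0.24, against -0.25 to 0.23 for other pairs. With so few arrays per group these correlations cannot decide whether the cultures were paired. With the replicate block 199 genes passed in all, Relb stayed at 0.68 (limma adjusted p = 0.0360), Ikbkg at 0.64 (limma adjusted p = 0.0384) and Nfkbib at 0.88 (limma adjusted p = 0.0708). WT signal near or under the array medians limits the folds of Map3k14, Traf1, Tnip3, Il1a, Il1b and Ptgs2. Outliers were not tested in groups of 3.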
